A study of Mus musculus with 4 samples.

Results

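Glycolysis and the response to low oxygen were followed through 37 genes: the oxygen-regulated subunits of hypoxia-inducible factor (HIF), the enzymes of the glycolytic pathway, and genes that HIF is known to activate. The genes were listed by name, and 34 of the 37 were measured by a probe set of their own among the 18193 genes of the array. Gpi1 and Eno1 had no match among the annotated probe sets used here. Gapdh was represented only by probe sets shared with pseudogenes, so none of these 3 glycolytic genes was analysed here.

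RNA of chondrocytes from the rib cartilage of mice at postnatal day 5 was hybridised to 4 whole-genome arrays, 1 for each genotype, all on a C57BL6/J background. Matn3 mutant mice (Xbp1 WT, Matn3 V194D) are homozygous for a knock-in that changes 1 residue of matrilin-3, a cartilage matrix protein, and they are a model of multiple epiphyseal dysplasia. XBP1 null mice (Xbp1 Col2CreΔex2) have lost exon 2 of Xbp1, the transcription factor of the IRE1 branch of the unfolded protein response, in cells in which Cre was driven by the Col2a1 promoter. Double mutant mice carry both changes, and wild type mice (Xbp1 WT) carry neither. The RNA of each array was pooled from 3 extractions of collagenase-released cells, so each genotype has 1 value per gene. No difference between 2 arrays could therefore be tested, and a fold change is given as a description of these pools. The comparison asks how the mutation and the loss of XBP1, alone and together, stood in relation to the genes of sugar breakdown and hypoxia.

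Growth plate cartilage has no blood vessels, and its chondrocytes depend largely on glycolysis and on HIF-1 for survival. Under normal oxygen, prolyl hydroxylases of the EGLN family mark the HIF alpha subunits for destruction, while at low oxygen the alpha subunit is stable, pairs with ARNT and binds hypoxia response elements at its target genes. This control acts on the protein, so the transcript of Hif1a does not report HIF activity, which is usually read from its targets.

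The array values are linear signals, used as log2 after signals under 1 had been set to 1. The 4 arrays had medians from 43.79 to 43.84, and 8.36% to 10.9% of their signals were under 1. Xbp1 had 4 probe sets, and the brightest had signals of 11403 in Matn3 mutant, 7877 in XBP1 null, 9548 in double mutant and 8183 in wild type chondrocytes. Whether these probe sets lie within the deleted exon was not analysed, so they do not test the deletion. Chondrocyte markers were strong on all arrays, with the 14 listed markers summing to 167118 in Matn3 mutant, 161339 in XBP1 null, 176027 in double mutant and 150684 in wild type chondrocytes.

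Hypoxia response elements hold the core ACGTG or GCGTG, and this core was searched on both strands, where it reads CACGT or CACGC on the other strand, in the 250 bases before and the 50 bases after each start site in RefSeq (GRCm38.p6). Matches that overlap were each counted, so CACGTG counts as 2. Of the 34 measured genes, 31 had a window in this table, and 29 of the 31 held at least 1 core, against 70.4% of the 7459 genes with a window at or above the median intensity. Counted by window, 36 of 46 windows of the listed genes held a core (78.3%), against 43.8% of all 32851 windows. Tpi1 and Car12 had none in these windows. The windows of the 5 genes that the results below turn on are shown 5′ to 3′ on the strand of the gene, with the cores in capitals. Adm lies at chr7:110627407-110627706 (+), Ankrd37 at chr8:45999801-46000100 (−), Car9 at chr4:43506776-43507075 (+), Pfkl at chr10:78009758-78010057 (−), and Aldoc at chr11:78322823-78323122 (+), the more upstream of its 2 windows.
Adm: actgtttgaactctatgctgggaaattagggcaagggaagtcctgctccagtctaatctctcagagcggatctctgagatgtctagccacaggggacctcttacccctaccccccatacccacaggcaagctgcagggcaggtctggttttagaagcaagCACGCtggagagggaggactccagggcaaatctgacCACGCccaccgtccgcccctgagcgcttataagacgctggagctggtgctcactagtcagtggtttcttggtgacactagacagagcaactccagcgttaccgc
Ankrd37: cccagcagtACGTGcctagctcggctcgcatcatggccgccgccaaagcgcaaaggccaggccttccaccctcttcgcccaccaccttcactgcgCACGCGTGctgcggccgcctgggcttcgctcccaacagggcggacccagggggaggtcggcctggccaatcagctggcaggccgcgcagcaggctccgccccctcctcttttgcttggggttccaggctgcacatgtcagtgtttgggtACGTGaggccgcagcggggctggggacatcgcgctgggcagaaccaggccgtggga
Car9: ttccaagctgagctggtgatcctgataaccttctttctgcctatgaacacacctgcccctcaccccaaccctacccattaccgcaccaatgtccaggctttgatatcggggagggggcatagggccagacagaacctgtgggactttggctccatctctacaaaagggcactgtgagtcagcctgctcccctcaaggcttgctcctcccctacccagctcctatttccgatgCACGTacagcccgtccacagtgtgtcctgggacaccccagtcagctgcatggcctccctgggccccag
Pfkl: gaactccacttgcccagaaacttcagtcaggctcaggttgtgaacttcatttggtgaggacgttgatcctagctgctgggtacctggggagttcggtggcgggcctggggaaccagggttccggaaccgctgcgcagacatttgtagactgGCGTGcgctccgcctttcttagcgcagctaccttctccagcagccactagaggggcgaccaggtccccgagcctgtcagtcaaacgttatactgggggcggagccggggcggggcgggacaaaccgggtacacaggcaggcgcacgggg
Aldoc: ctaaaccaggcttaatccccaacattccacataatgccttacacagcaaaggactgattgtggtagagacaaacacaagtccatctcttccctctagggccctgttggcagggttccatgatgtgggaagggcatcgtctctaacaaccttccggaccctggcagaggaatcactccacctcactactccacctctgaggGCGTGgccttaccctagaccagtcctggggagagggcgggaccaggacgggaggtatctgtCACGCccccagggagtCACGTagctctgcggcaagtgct
Adm holds 2 cores, Ankrd37 holds 4, of which 2 overlap, Car9 and Pfkl hold 1 each, and Aldoc holds 3, of which 2 lie after the start site. A match is a description of the letters and not of binding.

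The 4 arrays were ranked for each gene. The Matn3 mutant array gave the lowest of the 4 signals for 19 of the 34 genes and the highest for none. Among all genes at or above the median intensity, it was the lowest for 44.3%. That set was not matched by brightness to the 34 genes, of which 16 were in the top 10% of genes by mean log2 signal. Both single mutants lay below both the double mutant and wild type for 18 of the 34 genes, against 19.9% of genes at or above the median intensity and 16.0% of all genes. The reverse order, with both single mutants above, was found for Ndrg1 and Pfkfb4 among the 34 genes and for 13.2% of genes at or above the median intensity. The 18 genes were Pfkl, Pfkm, Aldoa, Aldoc, Tpi1, Pgk1, Pgam1, Pkm, Pdk1, Bnip3, Car9, Car12, Egln3, Pfkfb3, P4ha1, P4ha2, Ddit4 and Mxi1, which include 8 of the 12 measured glycolytic enzymes. The ranks take no account of size: XBP1 null lay within 1.02-fold of wild type for Aldoa and Pgk1, and the double mutant was 1.36-fold below wild type for Mxi1. They were also read on the brightest probe set of each gene. The second probe sets of Pfkl, Aldoc, Tpi1, Pdk1, Car12, Egln3 and Pfkfb3 kept both single mutants below both others. On those of Aldoa, P4ha1 and Mxi1 the double mutant lay below XBP1 null, and on that of Pgk1 Matn3 mutant lay above wild type.

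**Figure D1:**
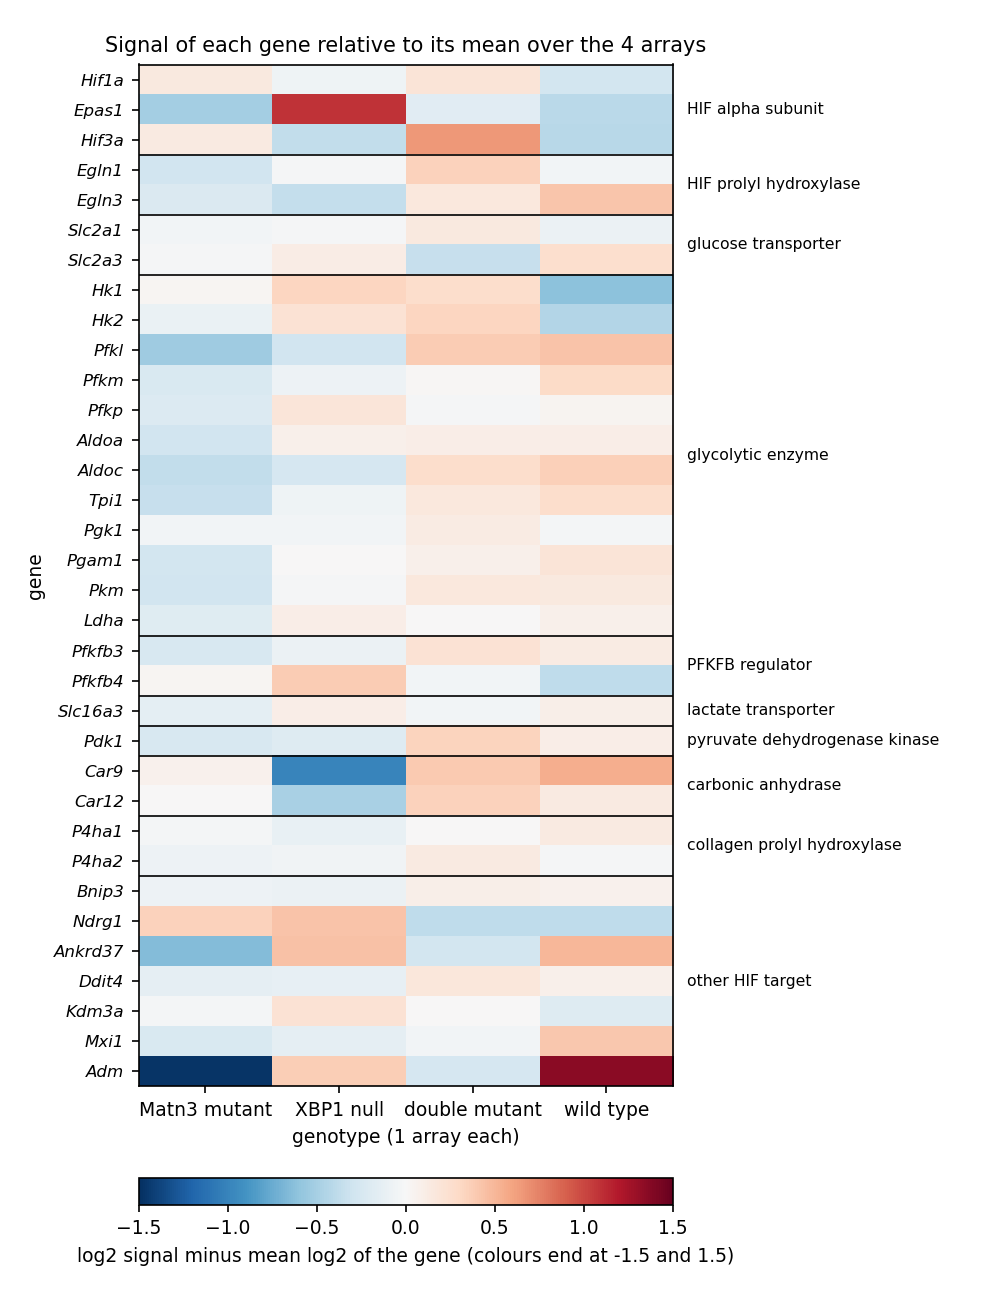
Log2 signal of each of the 34 measured genes (rows, grouped by role) minus the mean of that gene over the 4 arrays (columns, 1 array per genotype); blue is lower and red is higher. Most glycolytic enzymes are blue in the Matn3 mutant column and red in the wild type column, and Ndrg1 has the opposite pattern to Pfkl.

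Compared to wild type, Matn3 mutant chondrocytes had 7 of the 34 genes over 1.5-fold lower and 2 over 1.5-fold higher, and the median log2 difference was −0.25, with 26 of the 34 below 0. Over all genes of the array, 19.3% were over 1.5-fold lower and 21.2% higher in this comparison, with a median of 0, and among genes at or above the median intensity the shares were 15.8% lower and 11.6% higher, with a median of −0.07. The share of listed genes past 1.5-fold in either direction, 26.5%, was close to the 27.4% of genes at or above the median intensity, while 8 of the 34 genes were above 0, against 43.8% of those genes. The 7 lower genes were Adm, Ankrd37, Pfkl, Aldoc, Egln3, Mxi1 and Tpi1, and the 2 higher were Ndrg1 and Hk1.

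In XBP1 null chondrocytes compared to wild type, 6 genes were over 1.5-fold lower and 5 were over 1.5-fold higher, with a median log2 difference of −0.10. Over all genes, 11.5% were lower and 23.3% higher, with a median of 0.09, and at or above the median intensity 4% were lower and 17.1% higher. The lower genes were Car9, Adm, Egln3, Pfkl, Car12 and Aldoc, and the higher were Epas1, Hk1, Ndrg1, Pfkfb4 and Hk2.

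Loss of XBP1 from Matn3 mutant chondrocytes was set beside these differences. In double mutant against Matn3 mutant chondrocytes, 4 genes were over 1.5-fold higher (Adm, Pfkl, Egln1 and Aldoc) and 1 was over 1.5-fold lower (Ndrg1), and 31 of the 34 differences were above 0, with a median of 0.32. Over all genes 17.4% were higher and 9.03% lower, with a median of 0.15, and at or above the median intensity 9.71% were higher and 2.13% lower. Genes at or above the median intensity, a set that was not matched to the listed genes, were above 0 for 74.7%, with a median of 0.19. In double mutant against XBP1 null chondrocytes, 4 genes were over 1.5-fold higher (Car9, Hif3a, Car12 and Pfkl) and 4 were over 1.5-fold lower (Epas1, Ndrg1, Ankrd37 and Adm), against 16.6% higher and 16.9% lower over all genes, and 4.64% higher and 8.24% lower at or above the median intensity. The median was 0.14 for the listed genes and −0.01 for genes at or above the median intensity. In double mutant against wild type chondrocytes, 3 genes were over 1.5-fold higher (Hif3a, Hk1 and Hk2) and 3 were over 1.5-fold lower (Adm, Ankrd37 and Slc2a3), against 24.1% higher and 12.1% lower over all genes, and 13.7% higher and 5.21% lower at or above the median intensity. The median of the listed genes was 0.01, against 0.13 over all genes and 0.12 at or above the median intensity. Of the 34 genes, 17 were above 0, against 62.3% at or above the median intensity. The comparisons share arrays, so their values are not independent of each other.

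**Figure D2:**
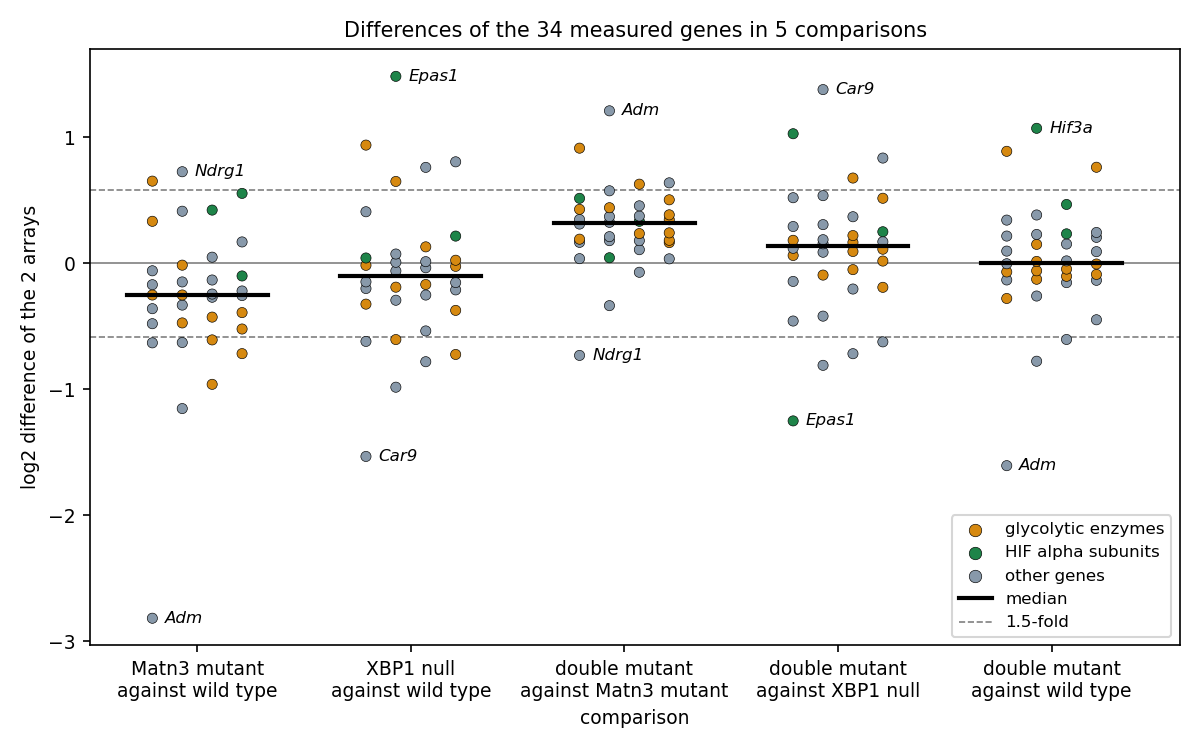
Log2 difference of each of the 34 genes (points) in the 5 comparisons (columns), with the median as a bar and 1.5-fold as dashed lines; each comparison is of 2 arrays. The median lies at −0.25 in Matn3 mutant against wild type and at 0.32 in double mutant against Matn3 mutant, where Adm and Ndrg1 mark the ends.

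Matn3 mutant against wild type and double mutant against XBP1 null have no array in common, and they give the difference with the Matn3 mutation on both Xbp1 backgrounds. On these, 19 of the 34 genes (55.9%) were lower with the mutation when XBP1 was intact and higher with it when XBP1 was absent, a pattern seen in 26.2% of genes at or above the median intensity. Only 7 of the listed genes (20.6%) were lower on both backgrounds, against 30.0% of those genes. The interaction, the difference with the mutation in XBP1 null cells minus that in cells with XBP1, had a median of 0.42 on the log2 scale over the 34 genes and was above 0 for 26. Over genes at or above the median intensity, which were not matched to the listed genes by brightness, the median was 0.08 and 55.4% were above 0. With 1 array for each genotype the interaction has no error of its own.

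**Figure D3:**
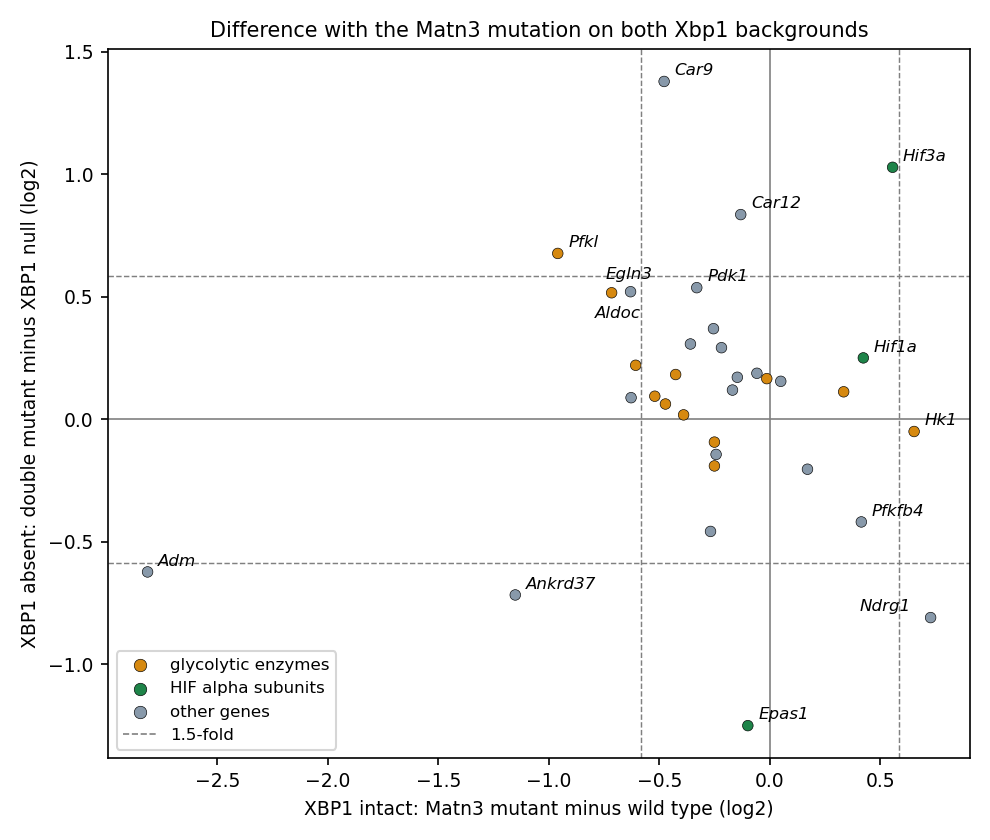
Log2 difference with the Matn3 mutation for each of the 34 genes, in XBP1-intact cells (Matn3 mutant minus wild type, horizontal) and in cells without XBP1 (double mutant minus XBP1 null, vertical), with dashed lines at 1.5-fold. The upper left quadrant holds 19 genes, Adm and Ankrd37 are past 1.5-fold in the lower left, and Ndrg1 is past it in the lower right.

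A limma model with additive terms for mutant Matn3 and for absent XBP1, fitted over all 45037 probe sets, uses each difference on the 2 backgrounds as a repeat of the other and leaves 1 residual degree of freedom. After Benjamini-Hochberg adjustment none of the 34 genes was called for either effect at 0.05, and neither was any other probe set (0% for both effects). At an unadjusted p under 0.05 limma gave 3381 probe sets (7.51%) for the Matn3 mutation, with 0 of the listed genes, and 2052 (4.56%) for the loss of XBP1, with 1 of them. That gene was Hk2, with a log2 effect of loss of XBP1 of 0.54 ± 0.13 (SE), an unadjusted p of 0.0474 and an adjusted p of 0.819 in limma, and it was higher without XBP1 on both backgrounds. The smallest unadjusted p for the Matn3 mutation was that of Ankrd37, with an effect of −0.93 ± 0.27 (SE), an unadjusted p of 0.0733 and an adjusted p of 0.635 in limma, and it was lower with the mutation on both backgrounds. The model takes the interaction as error.

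Hif1a, which encodes the main oxygen-regulated subunit in cartilage, had signals of 11601 in Matn3 mutant, 10056 in XBP1 null, 11967 in double mutant and 8653 in wild type chondrocytes on its brightest probe set. Wild type was the lowest of the 4, and all 3 differences to it were under 1.5-fold, at 1.34-fold for Matn3 mutant, 1.16-fold for XBP1 null and 1.38-fold for double mutant chondrocytes. The other probe sets did not give 1 direction. The second brightest had signals of 2916 in Matn3 mutant, 2410 in XBP1 null, 2876 in double mutant and 1578 in wild type chondrocytes. The third and the dimmest were instead highest in wild type, with 484, 365, 364 and 701 on the third, and 42.6, 59.2, 26.1 and 171 on the dimmest, in Matn3 mutant, XBP1 null, double mutant and wild type chondrocytes. The direction for Hif1a thus depended on the probe set, and which parts of the transcript they cover was not analysed.

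**Figure D4:**
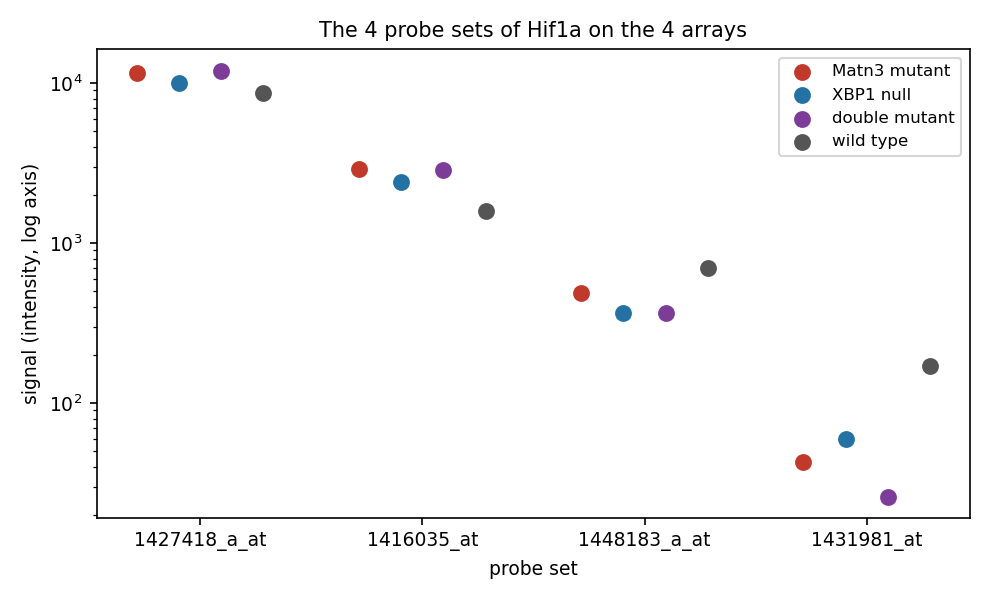
Signals (log axis) of the 4 probe sets of Hif1a, with 1 point per array. Wild type is the lowest of the 4 arrays on the first and second brightest probe sets shown and the highest on the other pair.

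Epas1 encodes HIF-2 alpha, a subunit abundant in endothelium that has also been described in hypertrophic cartilage. Its signals on the brighter probe set were 766 in Matn3 mutant, 2297 in XBP1 null, 966 in double mutant and 821 in wild type chondrocytes. There the XBP1 null array alone was high, by 2.80-fold against wild type. The dimmer probe set gave 49.0, 89.7, 45.2 and 76.1 in the same genotypes, with XBP1 null 1.18-fold above wild type. The 8 endothelial markers were all over 1.5-fold higher in that comparison, and summed to 471 in Matn3 mutant, 3466 in XBP1 null, 800 in double mutant and 92.7 in wild type chondrocytes. Among these markers, Pecam1 had a signal of 87.7 in XBP1 null chondrocytes and under 1 on the other 3 arrays. Cdh5 had 146 in Matn3 mutant, 838 in XBP1 null, 221 in double mutant and 11.5 in wild type chondrocytes. Against wild type, Matn3 mutant chondrocytes also had 6 of the 8 markers over 1.5-fold higher and double mutant chondrocytes had 7. The log2 differences of Epas1 on its brighter probe set were −0.10 in Matn3 mutant and 0.23 in double mutant cells. The part of endothelial cells in the value of Epas1 was not tested. In a preparation of bulk cells, fewer cells of a type and less RNA per cell cannot be told apart. Hif3a, a subunit known mainly as an inhibitor of the others, had low signals of 51.0 in Matn3 mutant, 35.7 in XBP1 null, 72.9 in double mutant and 34.7 in wild type chondrocytes. Its second probe set gave 10.3, 36.9, 28.3 and 66.4 in the same genotypes, so the 2.10-fold higher value of the double mutant against wild type was turned round on that probe set.

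The prolyl hydroxylases are themselves HIF targets. Egln3 had signals of 164 in Matn3 mutant, 148 in XBP1 null, 212 in double mutant and 254 in wild type chondrocytes, 1.55-fold and 1.72-fold lower than wild type in the single mutants. Its dimmer probe set kept this order, with 13.7, 11.3, 28.6 and 49.6. Egln1, the principal oxygen sensor of most cells, had signals of 689.6 in Matn3 mutant, 831 in XBP1 null, 1074 in double mutant and 823 in wild type chondrocytes. The double mutant array was the highest, 1.56-fold above Matn3 mutant, and XBP1 null differed from wild type by 1.01-fold.

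Glucose enters chondrocytes through GLUT1, encoded by Slc2a1, which had signals of 12517 in Matn3 mutant, 12737 in XBP1 null, 14185 in double mutant and 12097 in wild type chondrocytes. These 4 values lay within 1.17-fold of wild type. On its dimmest probe set, Matn3 mutant was 1.54-fold below wild type, with signals of 4329 and 6646. Slc2a3, which encodes GLUT3, had signals from 157 in double mutant to 239 in wild type chondrocytes, a difference of 1.52-fold. Slc16a3, which encodes the lactate exporter MCT4, had signals close to the array median, from 51.4 in Matn3 mutant to 61.3 in XBP1 null chondrocytes.

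The glycolytic enzymes are taken here in the order of the pathway. Hexokinase traps glucose as its phosphate, and Hk1 was lowest in wild type, with signals of 1458 in Matn3 mutant, 1778 in XBP1 null, 1718 in double mutant and 928 in wild type chondrocytes. All 3 mutant arrays were over 1.5-fold higher than wild type for Hk1, the highest being XBP1 null at 1.92-fold. On its dimmer probe set wild type was also lowest, with Matn3 mutant 1.21-fold, XBP1 null 1.68-fold and double mutant 1.72-fold above it. Hk2 shared this order of wild type below the rest, with 3967 in Matn3 mutant, 4939 in XBP1 null, 5340.3 in double mutant and 3147 in wild type chondrocytes. The 2 hexokinases were the only measured enzymes of the pathway for which wild type was the lowest array.

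Phosphofructokinase, the committed step, has 3 genes. Pfkl, the liver-type subunit, had signals of 239 in Matn3 mutant, 282 in XBP1 null, 451 in double mutant and 465 in wild type chondrocytes. Both single mutants were low, by 1.94-fold and 1.65-fold against wild type, and the double mutant lay within 1.03-fold of wild type. The second probe set of Pfkl ranked the arrays alike in that both single mutants were low, with 174 in Matn3 mutant, 138 in XBP1 null, 268 in double mutant and 229 in wild type chondrocytes. The third and dimmest, at 60.8, 65.6, 21.3 and 85.4, was lowest in the double mutant. Pfkm, the muscle-type subunit, had its lowest signal in Matn3 mutant (439) and its highest in wild type chondrocytes (629). Pfkp, the platelet-type subunit, ranged from 1646 in Matn3 mutant to 2145 in XBP1 null chondrocytes.

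Aldolase splits the phosphorylated sugar. Aldoc, the isoform best known from brain and a HIF target, had signals of 1273 in Matn3 mutant, 1376 in XBP1 null, 1969 in double mutant and 2092 in wild type chondrocytes. It was 1.64-fold lower in Matn3 mutant and 1.52-fold lower in XBP1 null than in wild type chondrocytes, and 1.55-fold higher in double mutant than in Matn3 mutant chondrocytes. Aldoa, the widespread isoform, had signals of 3303 in Matn3 mutant, 4259 in XBP1 null, 4314 in double mutant and 4329 in wild type chondrocytes, with Matn3 mutant 1.31-fold and XBP1 null 1.02-fold below wild type. On 3 of its other 4 probe sets Matn3 mutant was 1.54-fold to 1.60-fold below wild type, and on the dimmest it was 1.12-fold above. Tpi1, which interconverts the products of aldolase, had 5371 in Matn3 mutant, 6539 in XBP1 null, 7621 in double mutant and 8182 in wild type chondrocytes. Its other 2 probe sets kept this order of the 4 arrays, with Matn3 mutant 1.52-fold to 1.73-fold below wild type on the 3.

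In the lower part of the pathway no pair of genotypes differed by over 1.5-fold. Pgk1, which makes ATP, had signals of 8445 in Matn3 mutant, 8436 in XBP1 null, 9468 in double mutant and 8527 in wild type chondrocytes, and the widest gap, double mutant over XBP1 null, was 1.12-fold. Pgam1, which encodes phosphoglycerate mutase, had 4124 in Matn3 mutant, 5020.1 in XBP1 null, 5243 in double mutant and 5721 in wild type chondrocytes. Pkm, the pyruvate kinase of these cells, had 1992, 2383, 2706 and 2676 in the same genotypes. Ldha, which turns pyruvate to lactate, had 7672, 9288, 8710 and 9128 in that order, with the lowest signal again in Matn3 mutant chondrocytes. Over the 12 measured enzymes, the Matn3 mutant array was the lowest for 9, the median difference to wild type was −0.41, and 10 of 12 differences were below 0. In double mutant against Matn3 mutant chondrocytes all 12 were above 0, with a median of 0.37 and a range of 0.17 to 0.91. Among genes at or above the median intensity, Matn3 mutant was the lowest array for 44.3%, and double mutant was above Matn3 mutant for 74.7%, with a median of 0.19. The 14 chondrocyte markers were likewise all above 0 in double mutant against Matn3 mutant, with a median of 0.05 and a range of 0.01 to 0.21. Neither set was matched to the enzymes by brightness.

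**Figure D5:**
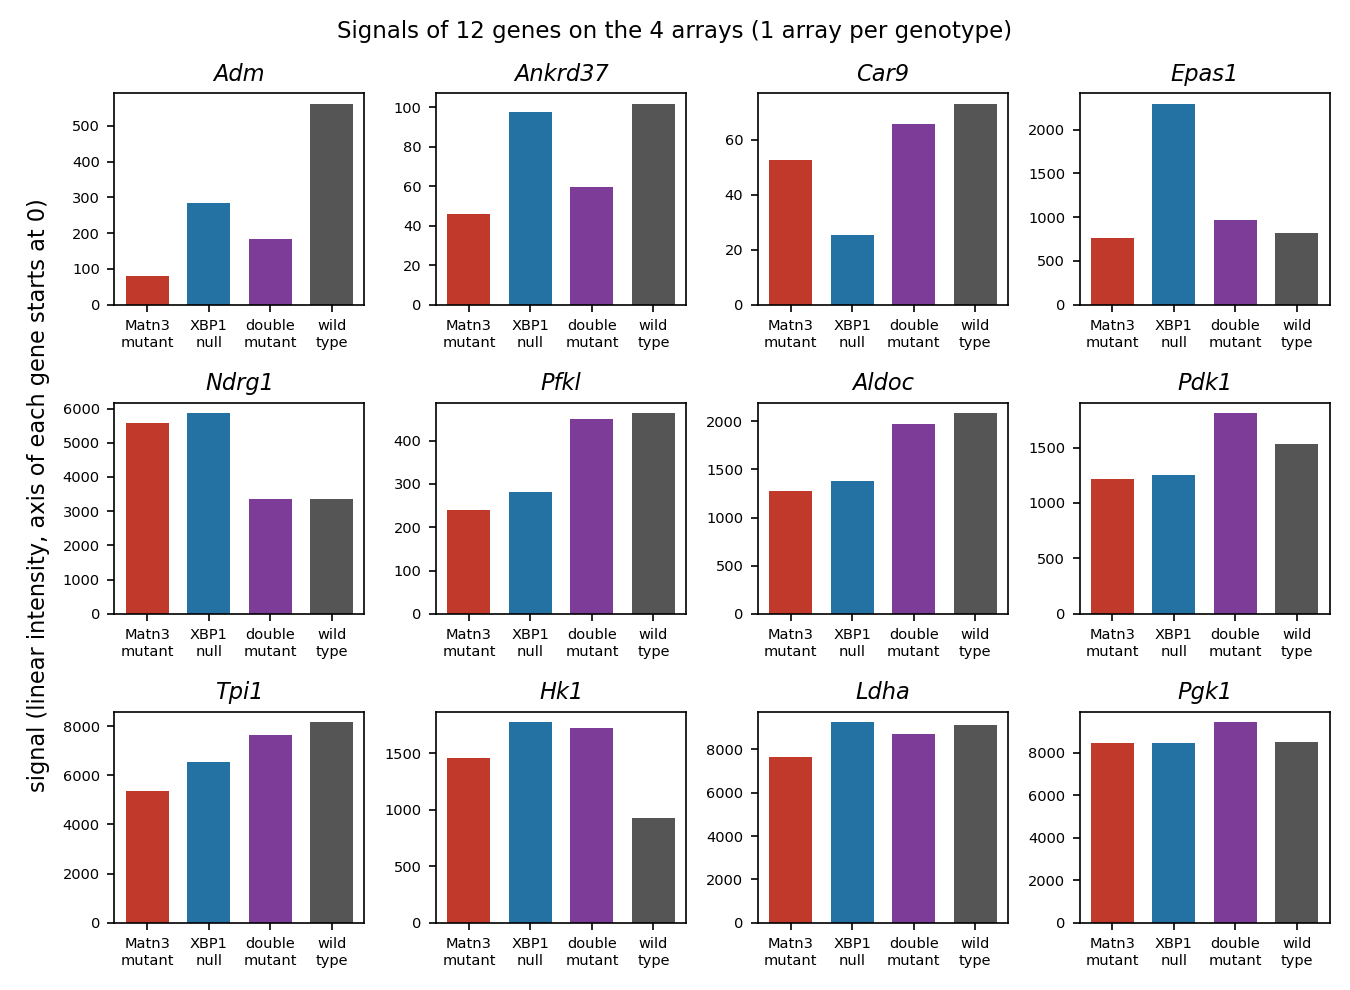
Signals (linear, each axis from 0) of 12 genes on the 4 arrays, 1 bar per genotype and no error bars because each genotype has 1 array. Pfkl, Aldoc and Pdk1 are low in both single mutants, Ndrg1 is high in both, Epas1 is high in XBP1 null only, and Adm is lowest in the Matn3 mutant.

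Genes that steer glucose carbon followed the enzymes in part. Pfkfb3 and Pfkfb4 make the activator of phosphofructokinase. Pfkfb3 had signals of 2622 in Matn3 mutant, 2907 in XBP1 null, 3599 in double mutant and 3363 in wild type chondrocytes, low in both single mutants. On its dimmer probe set, at 86.0, 37.2, 103 and 276 in the same genotypes, the double mutant was 2.68-fold below wild type. Pfkfb4 was lowest in wild type, at 179.6, and 1.70-fold higher in XBP1 null chondrocytes, at 305. Pdk1, the kinase that holds pyruvate back from the mitochondria, had signals of 1218 in Matn3 mutant, 1251 in XBP1 null, 1816 in double mutant and 1532 in wild type chondrocytes. Both single mutants were below wild type by 1.26-fold and 1.22-fold, and the double mutant was 1.49-fold above the Matn3 mutant. On all of its 3 other probe sets both single mutants were below wild type as well. The double mutant was above wild type on the brightest of these (880 against 822) but below it on the others (549 against 754, and 28.8 against 82.6). Its value of 549 was also below that of XBP1 null (582).

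The carbonic anhydrases Car9 and Car12, membrane enzymes that buffer the acid of glycolysis, were lowest in XBP1 null chondrocytes. Car9, a gene often used as a marker of HIF-1 activity, had low signals of 52.5 in Matn3 mutant, 25.3 in XBP1 null, 65.8 in double mutant and 73.1 in wild type chondrocytes. The XBP1 null value was 2.89-fold below wild type, and the double mutant was 2.60-fold above XBP1 null. The XBP1 null value lay under the median signal of its array (43.79) and the other values lay above theirs, while the gene lay under the median intensity of all genes. Car12 had 599 in Matn3 mutant, 427 in XBP1 null, 763 in double mutant and 657 in wild type chondrocytes, and its second probe set, at 45.4, 21.6, 61.1 and 60.9, was also lowest in XBP1 null.

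P4ha1 and P4ha2 encode the prolyl hydroxylases of collagen, which HIF-1 induces in chondrocytes. P4ha1 had signals of 5490.0 in Matn3 mutant, 5187 in XBP1 null, 5635 in double mutant and 6173 in wild type chondrocytes. P4ha2 had 5363, 5454, 6214 and 5586 in the same genotypes. On these probe sets the widest gap to wild type was 1.19-fold, for P4ha1 in XBP1 null chondrocytes, while the second probe set of P4ha1 was highest in wild type, with 1363 in Matn3 mutant, 1562 in XBP1 null, 1504 in double mutant and 2565 in wild type chondrocytes.

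Among the other HIF targets, Adm had the widest range of all 34 genes. Adm encodes adrenomedullin, a secreted vasodilator peptide induced by hypoxia, and had signals of 79.9 in Matn3 mutant, 285 in XBP1 null, 185 in double mutant and 562 in wild type chondrocytes. It was lower than wild type on all 3 mutant arrays, by 7.04-fold in Matn3 mutant, 1.98-fold in XBP1 null and 3.04-fold in double mutant chondrocytes. Its second probe set gave 55.8, 155, 168 and 399 in the same genotypes, with Matn3 mutant 7.15-fold below wild type. With the Matn3 mutation Adm was over 1.5-fold lower on both Xbp1 backgrounds on the brighter probe set (log2 differences of −2.82 and −0.62), while the second gave −2.84 and 0.12. Ankrd37, an ankyrin repeat gene and HIF target, was the other gene past 1.5-fold the same way on both backgrounds, with signals of 45.8 in Matn3 mutant, 97.7 in XBP1 null, 59.4 in double mutant and 102 in wild type chondrocytes. Its 2 arrays with the mutation were both below its 2 arrays without it. No gene was past 1.5-fold the same way with the loss of XBP1 on both Matn3 backgrounds.

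Ndrg1, a stress gene induced by hypoxia and by other signals, ran the opposite way to enzymes such as Pfkl and Aldoc, though not to the hexokinases. It had signals of 5571 in Matn3 mutant, 5884 in XBP1 null, 3358.5 in double mutant and 3365 in wild type chondrocytes, high in both single mutants by 1.66-fold and 1.75-fold. The double mutant lay within 1.01-fold of wild type on this probe set. On its other 4 probe sets the double mutant was the lowest of the arrays, below Matn3 mutant by 1.46-fold to 9.13-fold, and XBP1 null was the highest. The excess of Matn3 mutant over wild type was held by the 3 brightest of its 5 probe sets, and the 2 dimmest had Matn3 mutant below wild type.

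The remaining targets were closer together. Bnip3, a mitophagy gene, had signals of 6089.9 in Matn3 mutant, 6069 in XBP1 null, 6837 in double mutant and 6744 in wild type chondrocytes. Ddit4, an inhibitor of mTORC1, had 4977, 5045, 6180.0 and 5793 in the same genotypes, and both genes were lower in both single mutants than in wild type, by 1.11-fold to 1.16-fold. Mxi1, an antagonist of MYC, was highest in wild type, with 529.9 in Matn3 mutant, 565 in XBP1 null, 601 in double mutant and 819 in wild type chondrocytes. Kdm3a, a histone demethylase, had 1197, 1413, 1227 and 1064 in that order, lowest in wild type.

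For 12 of the listed genes a second probe set lay above the median intensity, which gives a check of the direction within each array pair though not of the animals. The second probe set had the same sign as the first for 10 of the 12 in Matn3 mutant against wild type, 10 in XBP1 null against wild type, 11 in double mutant against Matn3 mutant, 7 in double mutant against XBP1 null and 11 in double mutant against wild type.

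Markers of other cells moved over the 4 arrays. The 8 skeletal muscle markers summed to 1961 in Matn3 mutant, 2504 in XBP1 null, 2776 in double mutant and 3084 in wild type chondrocytes, the order of arrays found also for 7 listed genes (Pfkl, Pfkm, Aldoa, Aldoc, Tpi1, Pgam1 and Mxi1, or 20.6% of the 34, against 8.50% of genes at or above the median intensity and 5.97% of all genes). Most of that sum was Tnnt3, with 1829, 1906, 2406 and 2779.9 in these genotypes, while Acta1 had 108, 404, 299.9 and 226, Mylpf had 8.23, 100.3, 30.0 and 57.0, and Tnnc2 had 1.05, 75.8, 0.318 and 12.3. Ckm, Myh3, Myh8 and Actn3 had signals of at most 22.4 on any array. Apart from Tnnt3, no listed muscle marker had the order of the sum, and that order was read from these same arrays. Compared to wild type, 4 of the 8 were over 1.5-fold lower and 1 higher in Matn3 mutant, and 6 were higher in XBP1 null. The 6 measured markers of hypertrophic chondrocytes summed to 1894 in Matn3 mutant, 3194 in XBP1 null, 2098 in double mutant and 3192 in wild type chondrocytes. Osteoblast markers (4 of 6 measured) summed to 2549.6, 7522, 5167 and 4829 in the same genotypes, and fibroblast and perichondrium markers (6 of 6) to 41431, 60473, 54315 and 45348. The 4 measured erythroid markers summed to 23.6, 210.0, 34.5 and 127, with Hba-a1 under 2 on every array, and the 6 leukocyte markers to 715, 773, 807 and 556. The part of these cells in the differences of the listed genes was not tested.

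Outside the list, 62 further genes of HIF control, sugar use, pyruvate entry and hypoxia were set beside it, of which 56 were measured. In Matn3 mutant against wild type chondrocytes, 15 of the 56 were over 1.5-fold lower and 5 higher, with a median of −0.17, against 19.3% lower and 21.2% higher over all genes. In XBP1 null against wild type 7 were lower and 7 higher, with a median of −0.0043, against 11.5% and 23.3% over all genes. In double mutant against Matn3 mutant chondrocytes 11 were higher and 4 lower, with a median of 0.22, against 17.4% and 9.03% over all genes. In double mutant against XBP1 null 7 were higher and 10 lower (median 0.04), against 16.6% and 16.9% over all genes. The double mutant against wild type had 4 higher and 8 lower (median 0.08), against 24.1% and 12.1%. In the same order of comparisons, the medians over all genes were 0, 0.09, 0.15, 0 and 0.13. At or above the median intensity they were −0.07, 0.11, 0.19, −0.01 and 0.12. The oxygen-independent partner of the alpha subunits, Arnt, was within 1.5-fold of wild type on all 3 mutant arrays, with signals of 624 in Matn3 mutant, 659 in XBP1 null, 821 in double mutant and 583 in wild type chondrocytes.

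Single genes of this wider set ran in several directions. Vegfa, the main angiogenic target of HIF, had signals of 2295 in Matn3 mutant, 1579 in XBP1 null, 2636 in double mutant and 1088 in wild type chondrocytes, with wild type the lowest and the double mutant 2.42-fold above it. Stc2, a secreted glycoprotein induced by both hypoxia and endoplasmic reticulum stress, was also lowest in wild type, with 608, 765, 710.4 and 253 in the same genotypes. Vldlr, a lipoprotein receptor, had 2240.3, 2267, 1668 and 954 in that order. All 3 were over 1.5-fold higher in Matn3 mutant than in wild type chondrocytes.

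Other genes of the set, among them Ldhb, Pgm1 and Ak4, were lowest in Matn3 mutant chondrocytes, as 9 of the 12 measured enzymes were. Ldhb, the second lactate dehydrogenase gene, had signals of 1059 in Matn3 mutant, 1531 in XBP1 null, 1738 in double mutant and 1943 in wild type chondrocytes. Pgm1, which links glycogen to glycolysis, had 465, 564, 804 and 774 in the same genotypes, and Ak4, a mitochondrial adenylate kinase induced by HIF-1, had 500.4, 652, 867 and 1016. All 3 were over 1.5-fold lower in Matn3 mutant than in wild type chondrocytes and over 1.5-fold higher in double mutant than in Matn3 mutant chondrocytes. Pygl, a glycogen phosphorylase, was lowest in XBP1 null, with 805 in Matn3 mutant, 545 in XBP1 null, 1266 in double mutant and 1000.4 in wild type chondrocytes. Pdk4, a kinase of pyruvate dehydrogenase linked to fasting, was lowest in Matn3 mutant, with 163, 402, 251 and 415 in the same genotypes. Cited2, which competes with HIF-1 for its coactivator, was lowest in the double mutant, with 1249, 1616, 786 and 1399.

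Angptl4 and Pgm2 were highest in XBP1 null, as Epas1 was. Angptl4, a lipoprotein lipase inhibitor induced by hypoxia and fasting, had signals of 382 in Matn3 mutant, 1533 in XBP1 null, 498 in double mutant and 455 in wild type chondrocytes, 3.37-fold above wild type in XBP1 null. Pgm2, a second phosphoglucomutase gene, had 239.7, 586, 152 and 141 in the same genotypes, and was also higher in Matn3 mutant than in wild type chondrocytes (log2 difference 0.76). The endothelial markers given beside Epas1 were also highest in XBP1 null, and their part in these values was not tested.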

How the data were processed

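The values used are linear intensities deposited by the authors for the 45037 probe sets of the Mouse430_2 array, with 1 array for each of 4 genotypes. Chondrocytes were released with collagenase, RNA was extracted with Trizol and pooled from 3 extractions, and the methods name Microarray Suite 5 for quality control and PPLR with a 1.5-fold change for calls. How the authors summarised and normalised the intensities was not given in the sources used here, and PPLR needs probe-level errors, so it was not applied. Array intensities carry no count, and the single array per genotype limits the precision. Groups were taken from the sample titles.

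Signals under 1 were set to 1 and taken as log2, with no scaling. By the platform annotation 34945 probe sets name 1 gene, 932 several and 9160 none. Each gene took the brightest of the probe sets that name it alone. A difference past 1.5-fold was counted without a test, beside the share over all 18193 genes. The additive fit used limma 3.58.1 in R 4.3.3 (eBayes with trend, Benjamini-Hochberg over all probe sets). Its estimates were checked on simulated arrays with planted effects of the mutation and no interaction. The planted effects were larger than those of the listed genes, so its power at their sizes was not examined. Other steps used pandas 2.3.3 and numpy 2.4.6 in Python 3.11.15, and promoter windows came from RefSeq. The 37 genes, the other lists and the markers were chosen with earlier results of these data known. Genes given in full were Hif1a, Epas1, those past 1.5-fold the same way on both backgrounds, and the 4 largest and 4 smallest differences in each comparison, and the rest were described by role. For the wider pathway these were the 3 largest differences above the median intensity in each comparison, and Arnt was added after its values were seen. An alternative left out the probe sets whose names end in _x_at, _s_at or _a_at. The other alternatives were median centring, quantile normalization, genes as the median of their probe sets, and a floor at the 25th percentile. For the fit they were also eBayes without trend, 1 probe set per gene, and only probe sets at or above the median intensity.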

Additional observations from a re-analysis of the deposited data

Results flagged for a closer look

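For 4 genes a difference past 1.5-fold ran in opposite directions on the 2 backgrounds, and these differences between backgrounds were not tested, since each rests on 4 single arrays. Pfkl was lower with the Matn3 mutation when XBP1 was intact (log2 difference −0.96) and higher with it when XBP1 was absent (0.68), and loss of XBP1 gave −0.72 in Matn3 wild type and 0.91 in Matn3 mutant cells, an interaction of 1.64. Ndrg1 ran the other way, with 0.73 and −0.81 for the mutation, then 0.81 and −0.73 for absent XBP1, and an interaction of −1.54. Loss of XBP1 gave −0.60 in Matn3 wild type and 0.63 in Matn3 mutant cells for Aldoc (interaction 1.23). For Adm it gave −0.98 and 1.21 (interaction 2.19).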

How the results depend on the processing

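With 1 array per genotype no array could be left out: a comparison would lose a group and the additive fit its only residual degree of freedom. No paired analysis was possible because the labels give no shared replicate numbers. Counts were taken as the same within 1.5 times and medians within 0.1 on the log2 scale. Median centring and the 25th percentile floor moved no count or median of the listed genes past these limits, and 39 of 39 gene differences past 1.5-fold stayed past it. Quantile normalization moved the median in XBP1 null against wild type to −0.22, in double mutant against Matn3 mutant to 0.19 and in double mutant against wild type to −0.10, and left 2 genes over 1.5-fold higher in double mutant against Matn3 mutant. It kept the direction of all 39 differences and 32 past 1.5-fold. The median over probe sets moved the median in Matn3 mutant against wild type to −0.38 and its count of higher genes to 0. Without the probe sets whose names end in _x_at, _s_at or _a_at that count was 1, and 30 of the 35 differences that could be measured kept their direction. The 5 that turned round were Hif3a in double mutant against XBP1 null (−0.39) and against wild type (−1.23), Pfkl in double mutant against Matn3 mutant (−1.52) and against XBP1 null (−1.62), and Slc2a3 in double mutant against wild type (0.12), where dimmer probe sets stood in. The causes were not tested. The limma fit called 0 listed genes for both effects under all 6 alternatives, and 13 probe sets outside the list for the Matn3 mutation when only probe sets at or above the median intensity were fitted. Car9, Ankrd37, Hif3a and Slc16a3 lay under the median intensity of all genes.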
